A study of Homo sapiens with 9 samples.

Results

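Transcript levels of 8 genes of cholesterol synthesis and its control were followed in melanoma cells carrying guide RNAs against PHF8. The genes were SREBF2, INSIG1, HMGCS1, IDI1, FDFT1, SQLE, SC5D and DHCR7. They were taken by their symbols from a table of 57736 gene rows, in which each symbol had a row, and all 8 were among the 14614 genes with enough counts to be tested. PHF8 encodes a histone demethylase, and the study asked what its loss does to gene expression in SKMEL-147, an established human melanoma cell line. RNA-seq was performed on total RNA depleted of ribosomal RNA in 9 libraries, 3 for each of 3 guide RNAs. All 9 libraries came from SKMEL-147 cells transduced with lentiviruses for Cas9 and 1 guide, so that the controls also carried both. The control group (sgScr) received a scrambled guide, and the other groups received sgPHF8-1 or sgPHF8-3. The methods describe no isolation of single clones for these cells, so each library is taken here as a mixed population of edited and unedited cells. In such bulk samples, fewer cells with a given state and less RNA per cell cannot be told apart.

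Cells make cholesterol from acetyl-CoA through mevalonate, squalene and a series of sterols, and also take it up as low-density lipoprotein (LDL). Both routes are driven by SREBP-2, the product of SREBF2, which is held in the endoplasmic reticulum with its escort SCAP while INSIG proteins retain the pair at high sterol levels. When sterols are scarce, the factor is moved to the Golgi apparatus, cleaved and released, and its active part enters the nucleus and binds the promoters of the enzyme genes, of INSIG1 and of SREBF2 itself.

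The target sites of both guides were found on chromosome X, where PHF8 lies on the minus strand (GRCh37, chrX:53963109-54075391). They are shown because the guide is what tells the groups apart. The guide's 20 bases are in lower case and the adjoining PAM, the motif that Cas9 needs for cutting, is in capitals.
sgPHF8-1: gtcacactcgatcatgaagcGGG
sgPHF8-3: tcctcctgagcctaaacaagAGG
The sgPHF8-1 site (chrX:54069090-54069109, plus strand) lay in exon 2 of the 22 exons of the canonical transcript, and in the coding exons of 13 of 15 annotated coding transcripts. The sgPHF8-3 site (chrX:53966772-53966791, minus strand) lay in exon 21, and in the coding exons of 4 of the 15.

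PHF8 itself had normalized counts of 655.1, 605.8 and 634.2 in the sgScr libraries, 564.2, 571.2 and 565.2 with sgPHF8-1, and 399.8, 387.4 and 434.5 with sgPHF8-3. The groups did not overlap, and sgPHF8-3 was the lowest. PHF8 fell by 0.63 on the log2 scale with sgPHF8-3 (SE 0.058, edgeR adjusted p = 2.32e-11). With sgPHF8-1 it fell by 0.16 (SE 0.055, adjusted p = 0.0253), a call that was lost without sgScr replicate A (adjusted p = 0.119), sgScr replicate C (0.0692), sgPHF8-1 replicate A (0.07) or sgPHF8-1 replicate C (0.0539), and with DESeq2 (0.103). RNA from an edited allele is still counted, so the transcript level is not a measure of how many alleles were cut or of the protein. By Western blot, the paper reports efficient PHF8 knockout in SKMEL-147 with both guides.

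Each library held between 17366120 and 19838142 counts over genes. Replicates differed from each other by more than sampling noise, with a chi-square per gene between 1.314 and 3.865, and sgPHF8-1 replicate B and sgPHF8-3 replicate C stood farthest from the others of their groups. The counts of members called are therefore also given without these libraries. The melanocyte-lineage factor SOX10 was at 2770.6 ± 60.4 normalized counts (SD, n = 3) in sgScr and MITF at 252.9 ± 17.7, whereas the pigmentation genes MLANA and TYR were at 0 in all 9 libraries. AXL, a marker of dedifferentiated melanoma, was at 27921.2 ± 177.6 in sgScr.

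Transcripts of most of the cholesterol genes were lower in the PHF8 guide groups, with SC5D called with neither guide and DHCR7 not called with sgPHF8-1. SREBF2 and INSIG1, which control the pathway, fell most with either guide, and HMGCS1, at the entry of the mevalonate route, was the next with sgPHF8-1. The changes were moderate, the largest being that of SREBF2, which fell by 25.4% with sgPHF8-1. With sgPHF8-1, 6 of the 8 members were called lower and none higher, where 15.7% of all tested genes were called lower and 15.5% higher (edgeR quasi-likelihood test, Benjamini-Hochberg adjusted p under 0.05). With sgPHF8-3, 7 of 8 were called lower and none higher, where 10.1% of tested genes were called lower and 9.89% higher. Without sgPHF8-1 replicate B and sgPHF8-3 replicate C, the counts were again 6 and 7. Without sgScr replicate A they were 5 and 3, and with DESeq2 they were 6 and 5. The median log2 change of the members was -0.17 with sgPHF8-1 and -0.14 with sgPHF8-3, and that of all tested genes was 0 and -0.001. Both comparisons use the same sgScr libraries, so they are not independent of each other. In 7 of the 8 genes, every library of either guide group lay below every sgScr library. Among all tested genes, 21.1% had sgPHF8-1 libraries wholly below sgScr, and 17.8% had sgPHF8-3 libraries wholly below sgScr.

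**Figure D1:**
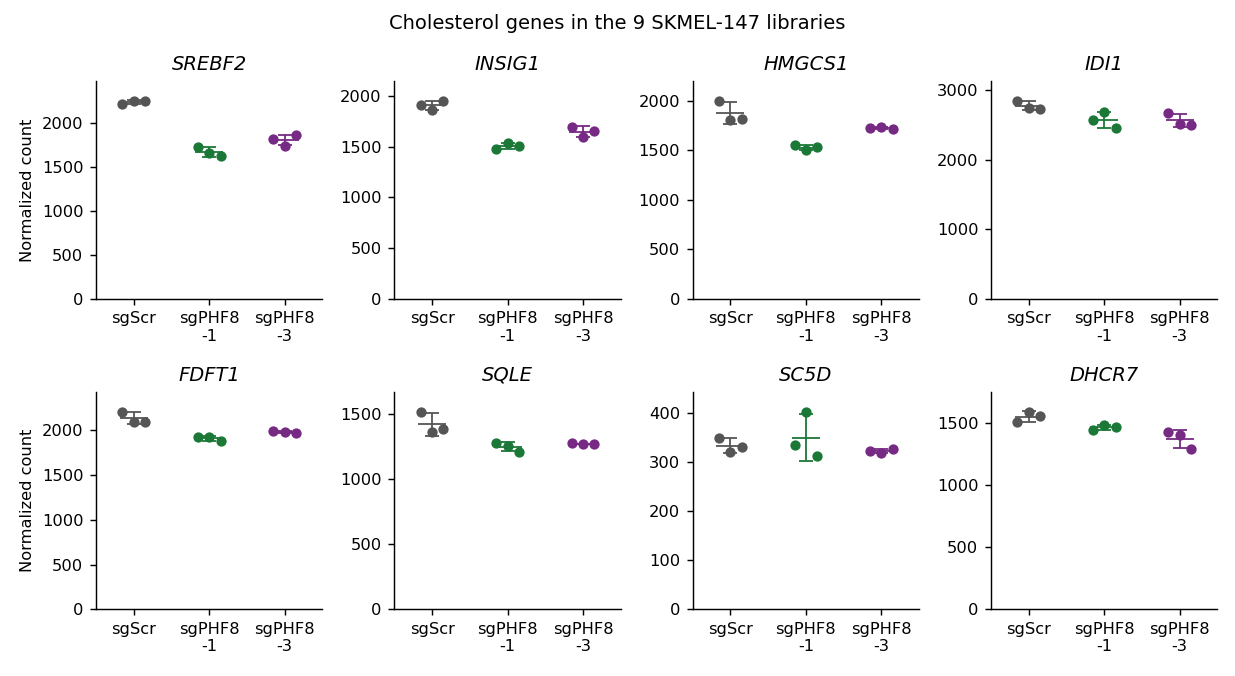
Normalized counts (vertical axis, from 0) of the 8 cholesterol genes in the 3 libraries of sgScr, sgPHF8-1 and sgPHF8-3, with points for libraries and bars for the mean and SD. In SREBF2 the sgScr libraries sit between 2217.1 and 2255.8 and all 6 PHF8 guide libraries at or below 1862.7, whereas the groups overlap in SC5D.

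SREBF2 encodes SREBP-2, the transcription factor that drives the pathway. Its normalized counts were 2217.1, 2254.7 and 2255.8 in sgScr, 1732.0, 1658.4 and 1624.4 with sgPHF8-1, and 1825.6, 1742.4 and 1862.7 with sgPHF8-3. The controls lay close together and above all PHF8 guide libraries, and the sgPHF8-1 libraries lay below those of sgPHF8-3. SREBF2 fell by 0.42 on the log2 scale with sgPHF8-1 (SE 0.035, edgeR adjusted p = 5.77e-13), a change of -25.4% with a 95% interval from -29% to -21.7%. With sgPHF8-3 it fell by 0.31 (SE 0.035, edgeR adjusted p = 5.14e-09), a change of -19.3%. The gene lies at chr22:42229109-42303310 on the plus strand of GRCh37. An antisense RNA gene, SREBF2-AS1, overlaps 9.08% of its exon bases, and since the strand setting of the counting is not given in the sources used here, reads of the pair may not have been told apart.

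INSIG1 encodes an endoplasmic reticulum protein that holds back SCAP and SREBP when sterols are plentiful, and is itself a target of SREBP. Its normalized counts were 1914.2, 1865.2 and 1954.9 in sgScr, 1482.1, 1539.4 and 1510.7 with sgPHF8-1, and 1697.2, 1595.9 and 1657.6 with sgPHF8-3. The 3 groups were fully separated, in the same order as for SREBF2. INSIG1 fell by 0.34 on the log2 scale with sgPHF8-1 (SE 0.036, edgeR adjusted p = 3.65e-10), a change of -21%. With sgPHF8-3 it fell by 0.21 (SE 0.035, edgeR adjusted p = 1.57e-05), a change of -13.7%. It lies at chr7:155089486-155101945 on the plus strand.

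The promoter sequences of the 3 genes with the largest decreases with sgPHF8-1 are shown because these genes are known to be driven by SREBP-2 and all fell with both guides. They were taken from RefSeq (table of GRCh38.p14) and placed on GRCh37 by an exact match, and only bases upstream of every annotated exon of the gene in GENCODE are printed, 5′ to 3′ on the gene's strand. Motif positions are counted from the RefSeq start, which lies within that annotated gene for INSIG1 and HMGCS1, so that their printed stretches end 103 and 101 bases before it. Capitals mark a match to TCACNCCAC, a form of the sterol regulatory element bound by SREBP, and to the CCAAT box, which reads ATTGG on the opposite strand.
SREBF2, chr22:42228859-42229108, plus strand: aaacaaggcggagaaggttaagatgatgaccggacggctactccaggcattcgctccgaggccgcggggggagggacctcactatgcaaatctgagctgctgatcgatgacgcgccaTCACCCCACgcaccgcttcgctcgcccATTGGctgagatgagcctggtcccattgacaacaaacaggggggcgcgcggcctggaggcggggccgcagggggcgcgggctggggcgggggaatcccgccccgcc
INSIG1, chr7:155089338-155089485, plus strand: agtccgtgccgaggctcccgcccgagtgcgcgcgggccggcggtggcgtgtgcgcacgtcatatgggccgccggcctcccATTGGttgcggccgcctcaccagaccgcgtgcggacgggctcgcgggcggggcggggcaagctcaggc
HMGCS1, chr5:43313615-43313764, minus strand: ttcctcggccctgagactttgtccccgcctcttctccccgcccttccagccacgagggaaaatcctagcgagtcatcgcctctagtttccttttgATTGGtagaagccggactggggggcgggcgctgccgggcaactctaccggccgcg
In SREBF2, TCACNCCAC lay 133 to 125 bases before the start and the CCAAT box 106 to 102 bases before it. In INSIG1 the CCAAT box lay 170 to 166 bases before the start, and the E-box form TCACNTGA, another sequence bound by SREBP, lay 56 to 49 bases before the start and beyond the printed stretch. HMGCS1 had a CCAAT box 155 to 151 bases before the start, and another at 100 to 96 bases that lies beyond the printed stretch.

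The motifs were searched on both strands in the 250 bases before the start of 35116 RefSeq promoters. Windows were found for 6 members, namely SREBF2, INSIG1, HMGCS1, IDI1, SC5D and DHCR7, which had 11 windows in all since some genes have several starts. CCAAT was present in 8 of the 11 windows, with at least 1 in each gene, and in 32.0% of all promoters. TCACNCCAC was present in 1 of the 11 windows, that of SREBF2, and in 310 promoters overall (0.883%). None of the motifs overlapped another in the windows shown of SREBF2, INSIG1 and HMGCS1. TCACNTGA was present in 1 of the 11 windows, that of INSIG1, and in 3.2% of promoters. A match describes the letters in this window only, and a window without one says nothing about binding.

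Of the enzymes, HMGCS1 acts first. It condenses acetyl groups to HMG-CoA, from which mevalonate is made. The libraries had normalized counts of 1996.9, 1804.3 and 1817.2 in sgScr, 1546.3, 1500.4 and 1527.3 with sgPHF8-1, and 1723.7, 1732.2 and 1711.5 with sgPHF8-3. The groups were fully separated, with sgScr replicate A above the other controls and the sgPHF8-3 libraries between the controls and sgPHF8-1. HMGCS1 fell by 0.30 on the log2 scale with sgPHF8-1 (SE 0.038, edgeR adjusted p = 3.2e-08), a change of -18.6%. With sgPHF8-3 it fell by 0.12 (SE 0.037, edgeR adjusted p = 0.0158), a change of -8%, and this call was lost without sgScr replicate A (log2 change -0.07, adjusted p = 0.223) and with DESeq2 (0.0674). The gene lies at chr5:43287572-43313614 on the minus strand, and 37.68% of its exon bases overlap an antisense long noncoding RNA.

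IDI1 interconverts the activated isoprene units from which all sterols and isoprenoids are built. Normalized counts of IDI1 were 2847.2, 2751.0 and 2732.4 in sgScr, 2566.9, 2683.9 and 2458.3 with sgPHF8-1, and 2672.2, 2518.3 and 2504.3 with sgPHF8-3. Both guide groups lay below the controls by a narrow margin and overlapped each other. IDI1 fell by 0.11 on the log2 scale with sgPHF8-1 (SE 0.034, edgeR adjusted p = 0.01) and by 0.11 with sgPHF8-3 (SE 0.034, edgeR adjusted p = 0.0139). The first call was lost without sgScr replicate A (adjusted p = 0.0677) or sgPHF8-1 replicate C (0.0872), and the other without sgScr replicate A (0.0926), sgPHF8-3 replicate B (0.0905) or sgPHF8-3 replicate C (0.0653). The gene lies at chr10:1085092-1095059 on the minus strand, and IDI2-AS1 on the opposite strand overlaps 14.97% of its exon bases.

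FDFT1, or squalene synthase, joins 2 farnesyl units into squalene and so commits the route to sterols. Normalized counts of FDFT1 were 2207.9, 2094.6 and 2089.7 in sgScr, 1923.7, 1924.5 and 1880.7 with sgPHF8-1, and 1988.3, 1976.1 and 1971.5 with sgPHF8-3. All 3 groups were separated, and the libraries within each guide group lay close together. FDFT1 fell by 0.16 on the log2 scale with sgPHF8-1 (SE 0.034, edgeR adjusted p = 0.000272) and by 0.11 with sgPHF8-3 (SE 0.034, edgeR adjusted p = 0.019). The latter call was lost without sgScr replicate A (adjusted p = 0.145) or sgPHF8-3 replicate B (0.0647), and with DESeq2 (0.0683). FDFT1 lies on chromosome 8, and an antisense long noncoding RNA overlaps 4.27% of its exon bases.

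SQLE oxidizes squalene to its epoxide, a rate-limiting step. Normalized counts of SQLE were 1516.5, 1357.7 and 1379.5 in sgScr, 1275.6, 1253.8 and 1208.0 with sgPHF8-1, and 1271.9, 1264.8 and 1266.4 with sgPHF8-3. As in HMGCS1 and FDFT1, sgScr replicate A was the highest, and the guide groups overlapped each other below the controls. SQLE fell by 0.19 on the log2 scale with sgPHF8-1 (SE 0.041, edgeR adjusted p = 0.000402) and by 0.16 with sgPHF8-3 (SE 0.041, edgeR adjusted p = 0.00343). Without sgScr replicate A the sgPHF8-3 change was -0.11 and was not called (adjusted p = 0.0795). SQLE also lies on chromosome 8.

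The last members act at the end of the pathway. SC5D, a sterol desaturase, was the member with the lowest count and the only one without a call in any comparison with sgScr. Its normalized counts were 350.3, 320.2 and 330.4 in sgScr, 335.9, 403.5 and 312.1 with sgPHF8-1, and 323.4, 319.8 and 327.7 with sgPHF8-3. The groups overlapped, and the highest value came from sgPHF8-1 replicate B, a library that stood apart from its replicates. The log2 change was 0.07 with sgPHF8-1 (95% interval -0.08 to 0.22) and -0.04 with sgPHF8-3 (95% interval -0.2 to 0.11), so that a decrease as large as that of SREBF2 lay outside both intervals. Without sgPHF8-1 replicate B the first value was -0.04. SC5D lies at chr11:121163390-121184119 on the plus strand.

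DHCR7 reduces 7-dehydrocholesterol to cholesterol, the final step of one branch. Its normalized counts were 1505.4, 1592.7 and 1555.2 in sgScr, 1443.5, 1484.2 and 1470.4 with sgPHF8-1, and 1426.8, 1405.2 and 1289.7 with sgPHF8-3. All 3 groups were separated, and unlike SREBF2, INSIG1 and HMGCS1 the sgPHF8-3 libraries were the lowest, with sgPHF8-3 replicate C below its replicates. DHCR7 fell by 0.17 on the log2 scale with sgPHF8-3 (SE 0.039, edgeR adjusted p = 0.000982). With sgPHF8-1 the log2 change was -0.08 (95% interval -0.16 to 0) and did not pass the threshold (edgeR adjusted p = 0.108). DHCR7 lies at chr11:71139239-71163914 on the minus strand.

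**Figure D2:**
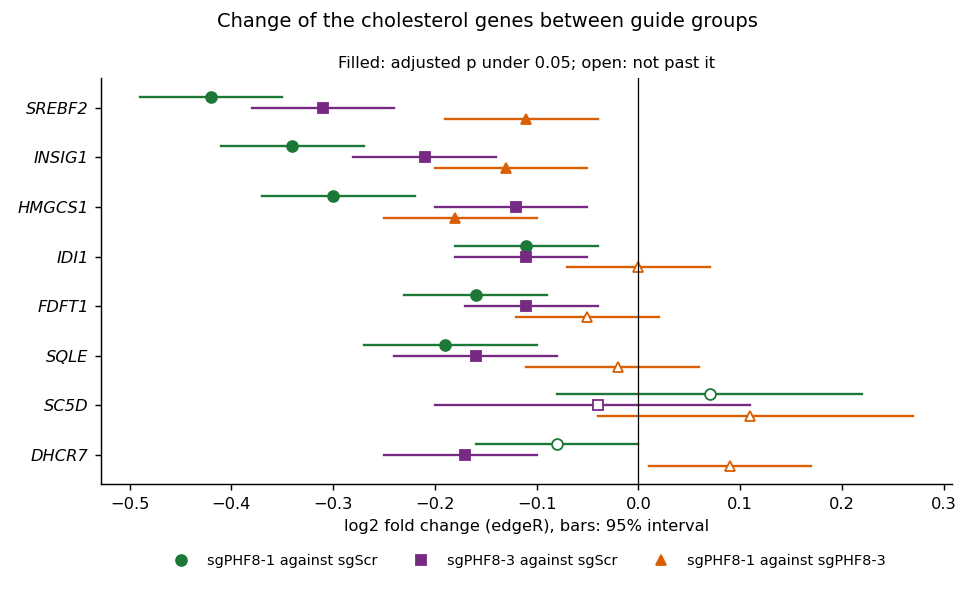
Log2 fold changes (horizontal axis) of the 8 genes with 95% intervals, for sgPHF8-1 against sgScr, sgPHF8-3 against sgScr and sgPHF8-1 against sgPHF8-3, where filled points passed an adjusted p of 0.05. SREBF2 lies farthest from 0 at -0.42 and -0.31 against sgScr, and the intervals of SC5D cross 0 in all 3 comparisons.

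The guides were then compared directly. The sgPHF8-1 libraries lay wholly below those of sgPHF8-3 in 4 members (SREBF2, INSIG1, HMGCS1 and FDFT1) and wholly above them in 1 (DHCR7), as did 13.0% and 12.4% of all tested genes. HMGCS1, INSIG1 and SREBF2 were lower with sgPHF8-1 than with sgPHF8-3, and 3 of the 8 members were thus called lower and none higher, where 6.06% of all tested genes were called lower and 5.11% higher. HMGCS1 differed by -0.18 on the log2 scale (SE 0.038, edgeR adjusted p = 0.00143), and this was the call that held in all 13 alternatives tried. INSIG1 differed by -0.13 (SE 0.037, edgeR adjusted p = 0.0167) and kept its call in 9 of 13, losing it with DESeq2 (0.0601) and without sgPHF8-1 replicate A (0.0907), sgPHF8-3 replicate A (0.0824) or sgPHF8-3 replicate C (0.0505). SREBF2 differed by -0.11 (SE 0.036, edgeR adjusted p = 0.0332) and kept its call in 5 of 13, losing it without sgPHF8-1 replicate B (0.063), sgPHF8-1 replicate C (0.133), sgPHF8-3 replicate A (0.0762) or sgPHF8-3 replicate C (0.16), with DESeq2 (0.0941), without a filter on low counts (0.0733), with only the groups compared (0.0554), and without the libraries that stood apart (0.188). In the same comparison PHF8 itself was higher with sgPHF8-1, by 0.48 (SE 0.06, edgeR adjusted p = 1.73e-07). The guide with the smaller decrease in PHF8 RNA had the larger decreases in these 3 genes. This RNA level does not rank the guides by loss of PHF8 protein.

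The remaining 5 members did not differ between the guides by this test. The log2 difference was 0.00 for IDI1 (95% interval -0.07 to 0.07), -0.02 for SQLE (-0.11 to 0.06) and -0.05 for FDFT1 (-0.12 to 0.02). It was 0.09 for DHCR7 (0.01 to 0.17, edgeR adjusted p = 0.134) and 0.11 for SC5D (-0.04 to 0.27). These intervals are not adjusted for the number of genes. A difference of -0.18, as seen for HMGCS1, lay outside all 5 of them.

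When the mean of both guides was set against sgScr, 7 of 8 members were called lower and none higher, where 14.9% of tested genes were called lower and 15.1% higher, and these 7 calls held in all 16 alternatives. SREBF2 fell by 0.37 on the log2 scale (SE 0.03, edgeR adjusted p = 3.67e-13), INSIG1 by 0.28 (SE 0.03, 1.26e-09) and HMGCS1 by 0.21 (SE 0.032, 1.71e-06). The smaller decreases were 0.17 for SQLE, 0.13 for FDFT1, 0.13 for DHCR7 and 0.11 for IDI1. SC5D had a log2 change of 0.01 (95% interval -0.12 to 0.14). The median over the members was -0.15, against -0.002 for all tested genes.

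Per kilobase of annotated exon, the members covered a wide range in the control cells. The exons of all annotated transcripts of a gene were merged for this length. Which transcripts the cells make was not tested, so the order of the genes also depends on the annotation. IDI1 was the highest at 646.7 normalized counts per kb, followed by INSIG1 at 523.7, FDFT1 at 419.4 and SQLE at 329.4. HMGCS1 at 282.6 and SREBF2 at 278.5 could not be ordered, since the HMGCS1 libraries (272.3 to 301.3) enclosed those of SREBF2 (275.3 to 280.1). DHCR7 followed at 225.5, and SC5D was far below the others at 33.2. The remaining neighbours in sgScr did not overlap. With sgPHF8-1, SREBF2 at 207.6 per kb was not separated from DHCR7 at 213.1, their libraries overlapping (201.7 to 215.1 and 209.9 to 215.8). SREBF2 lay below HMGCS1 at 230.1. With sgPHF8-3, HMGCS1 at 259.9 per kb (258.3 to 261.4), SREBF2 at 224.8 (216.4 to 231.3) and DHCR7 at 199.8 (187.5 to 207.4) were separated.

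**Figure D3:**
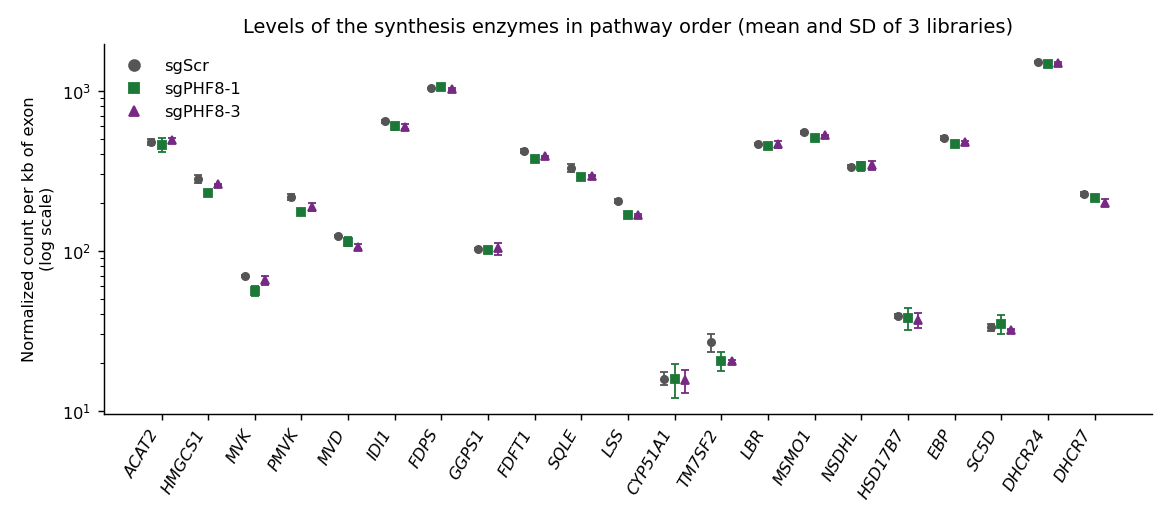
Levels of synthesis enzymes in pathway order, as normalized counts per kb of exon on a log axis, with the mean and SD of 3 libraries in each group. HMGCS1, at 282.6 per kb in sgScr and 230.1 with sgPHF8-1, shows a gap between groups, while SC5D near 33.2 lies among the lowest enzymes and its groups overlap.

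Within groups, some of the members were correlated over the libraries and others were not. The mean of their z-scores was 1.35, 0.75 and 0.83 in sgScr, -0.59, -0.19 and -0.99 with sgPHF8-1, and -0.14, -0.48 and -0.54 with sgPHF8-3. Across the 9 libraries, Pearson's r of log2 values was 0.96 between SREBF2 and INSIG1, 0.97 between FDFT1 and SQLE, and 0.94 between FDFT1 and HMGCS1. Both guide groups lay below sgScr in these genes, and that difference enters such values. Within groups, after each group's mean was removed, r was still 0.97 for FDFT1 and SQLE, 0.87 for FDFT1 and HMGCS1 and 0.89 for HMGCS1 and SQLE, but 0.19 for SREBF2 and INSIG1. It was also positive for IDI1 with SC5D (0.76), FDFT1 (0.65) and SQLE (0.54), and near 0 or negative for several others, such as -0.16 for SREBF2 and HMGCS1, -0.09 for INSIG1 and HMGCS1, and -0.42 for DHCR7 with either SQLE or SREBF2. In FDFT1, HMGCS1 and SQLE, sgScr replicate A was the highest of the 9 libraries and lay well above the other controls. The high r within groups of these 3 genes thus leans largely on 1 library. That of IDI1 and SC5D leans in part on sgPHF8-1 replicate B, the highest of its group in both genes. Values of r without these libraries were not computed. These correlations describe 9 libraries that share their scaling.

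The genes outside the pathway lists whose pattern over the 9 libraries was most like the mean of the members were IDH1 (r = 0.983), CDKN2D (0.971), ABCB4 (0.968), PGM1 (0.966) and DAZAP2 (0.966). IDH1, a cytosolic isocitrate dehydrogenase that makes NADPH, was at 1842.5 ± 34 normalized counts (SD, n = 3) in sgScr, 1630.7 ± 49 with sgPHF8-1 and 1687.5 ± 33.2 with sgPHF8-3. Against the same mean, FDFT1 was the closest member at 0.960, and SC5D the least alike at 0.178. Each member is part of that mean, which raises its own r, so members and other genes are not measured alike. Even so, FDFT1 ranked 13, SREBF2 153 and HMGCS1 695 among all tested genes. Among the pathway genes that were not members, SCD reached 0.952, FADS2 0.932 and LSS 0.923.

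The other genes of the pathway were taken from 5 lists. Of 56 tested genes that were not members, 23 were called lower and 2 higher with sgPHF8-1, and 19 lower and 2 higher with sgPHF8-3. Over all tested genes, 15.7% were lower and 15.5% higher with sgPHF8-1, and 10.1% lower and 9.89% higher with sgPHF8-3. Their median log2 change was -0.07 with either guide. The lists were chosen with results of these libraries known, so the counts are a description.

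Of the 16 synthesis enzymes outside the members, 7 were lower with sgPHF8-1 and 3 with sgPHF8-3, and none was higher. Among all tested genes, 15.7% were lower and 15.5% higher with sgPHF8-1, and 10.1% lower and 9.89% higher with sgPHF8-3. LSS, which closes the sterol ring, fell by 0.29 on the log2 scale with sgPHF8-1 (edgeR adjusted p = 6.25e-08) and by 0.29 with sgPHF8-3 (1.11e-07). The mevalonate kinases had -0.31 for MVK and -0.32 for PMVK with sgPHF8-1, both called, and -0.09 and -0.22 with sgPHF8-3, neither called. In the direct test of the guides MVK differed by -0.23 (edgeR adjusted p = 0.00802), while the difference of -0.10 in PMVK was not called (0.548). The kinases' downstream neighbour MVD had -0.11 with sgPHF8-1, which was not called, and fell by 0.22 with sgPHF8-3 (edgeR adjusted p = 0.00503), and its difference between the guides was not called (0.286). TM7SF2, a sterol reductase with a low count, was called lower with both guides (-0.38 and -0.40), and both calls were lost without sgScr replicate A (adjusted p = 0.202 and 0.217) or sgScr replicate C (0.056 and 0.0649). The sgPHF8-1 call was also lost without sgPHF8-1 replicate A (0.0783) or B (0.159), and the sgPHF8-3 call without replicate A (0.0911), B (0.0993) or C (0.0634) of that group. Both were lost with DESeq2 (0.135 and 0.147) and without a filter on low counts (0.0525 and 0.0548), and the sgPHF8-3 call with limma (0.0508).

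Of the 8 other regulators, 2 were lower with sgPHF8-1, 3 with sgPHF8-3 and none was higher, where 15.7% and 10.1% of all tested genes were lower, so that 2 of 8 lies near that share. SREBF1, whose product drives fatty acid synthesis, fell by 0.26 with sgPHF8-1 (edgeR adjusted p = 7.55e-06) and by 0.28 with sgPHF8-3 (5.03e-06). INSIG2, the second retention protein, fell by 0.26 (edgeR adjusted p = 0.0276) and by 0.29 (0.0172). Both INSIG2 calls were lost without sgScr replicate A (0.212 and 0.157) or B (0.0836 and 0.0638) and with DESeq2 (0.106 and 0.0773), the first also without sgPHF8-1 replicate A (0.0823) or B (0.0554) and the other without sgPHF8-3 replicate B (0.129). The escort SCAP stayed within -0.02 and -0.01 on the log2 scale, with 95% intervals of -0.09 to 0.04 and -0.08 to 0.05.

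Of 14 tested genes of uptake and intracellular transport, 6 were lower with sgPHF8-1 and 6 with sgPHF8-3, not all of them the same genes. With sgPHF8-1, 1 was higher. Among all tested genes, 15.7% were lower and 15.5% higher with sgPHF8-1, and 10.1% lower and 9.89% higher with sgPHF8-3. MYLIP, an LXR target that encodes a ubiquitin ligase, was at 73.8 ± 7.7 in sgScr, 30.6 ± 7.1 with sgPHF8-1 and 45.7 ± 13.4 with sgPHF8-3 (SD, n = 3). It fell by 1.27 (edgeR adjusted p = 1.54e-06) and by 0.69 (0.0037, or 0.0533 without sgPHF8-3 replicate A). SCARB1, a receptor for high-density lipoprotein, fell by 0.20 with sgPHF8-3 (edgeR adjusted p = 0.00102). With sgPHF8-1 its log2 change was -0.12 (0.0422), a call that was lost with DESeq2 (0.137), without a filter on low counts (0.0665) and when any 1 of the 6 libraries compared was left out, sgScr replicate A (0.124), B (0.0813) and C (0.0712) and sgPHF8-1 replicate A (0.0865), B (0.102) and C (0.0584). NPC2, a lysosomal cholesterol carrier, rose by 0.19 with sgPHF8-1 (edgeR adjusted p = 0.00185) and had 0.02 with sgPHF8-3.

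**Figure D4:**
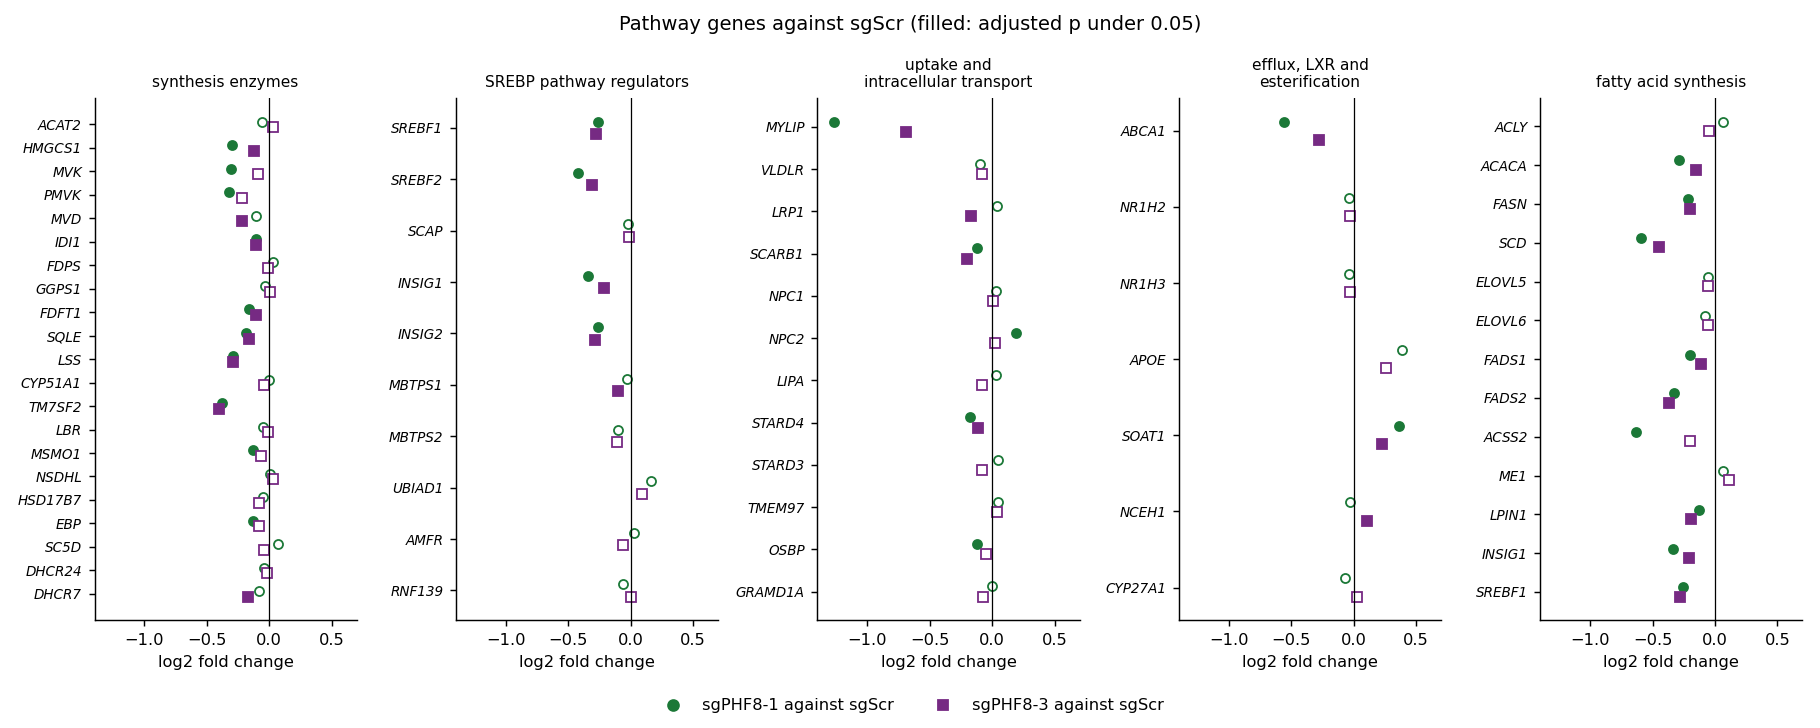
Log2 fold changes against sgScr (horizontal axis) of genes of 5 lists, with circles for sgPHF8-1 and squares for sgPHF8-3 and filled symbols for an adjusted p under 0.05. MYLIP lies farthest to the left at -1.27 with sgPHF8-1, and SOAT1 is called on the right of 0 with both guides, at 0.36 and 0.23.

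Of 7 tested genes of efflux, LXR signalling and esterification, 1 was lower and 1 higher with sgPHF8-1, and 1 lower and 2 higher with sgPHF8-3. The shares over all tested genes were 15.7% lower and 15.5% higher with sgPHF8-1, and 10.1% lower and 9.89% higher with sgPHF8-3, so that 1 of 7 lies near them. ABCA1, which exports cholesterol, fell by 0.56 with sgPHF8-1 (SE 0.034, edgeR adjusted p = 5.39e-17) and by 0.28 with sgPHF8-3 (SE 0.034, 3.08e-08). SOAT1, which esterifies cholesterol for storage, rose by 0.36 (SE 0.036, edgeR adjusted p = 9.82e-11) and by 0.23 (SE 0.037, 7.29e-06). NCEH1, which hydrolyses cholesteryl esters, had -0.03 with sgPHF8-1 and rose by 0.11 with sgPHF8-3 (edgeR adjusted p = 0.00711).

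The fatty acid list, which shares INSIG1 and SREBF1 with the lists above, had 9 of 13 genes lower with sgPHF8-1 and 8 of 13 with sgPHF8-3, and none higher. Without the member INSIG1 these counts were 8 and 7 of 12. Among all tested genes, 15.7% were lower and 15.5% higher with sgPHF8-1, and 10.1% lower and 9.89% higher with sgPHF8-3. SCD, the stearoyl-CoA desaturase, fell by 0.59 with sgPHF8-1 (SE 0.032, edgeR adjusted p = 1.18e-18) and by 0.45 with sgPHF8-3 (SE 0.032, 2.25e-14). FADS2, a polyunsaturated fatty acid desaturase, fell by 0.33 (edgeR adjusted p = 3.98e-11) and by 0.37 (1.11e-11). ACSS2, which makes acetyl-CoA from acetate, fell by 0.63 with sgPHF8-1 (edgeR adjusted p = 2.37e-07) and had -0.20 with sgPHF8-3 (0.0793). The median log2 change of the list was -0.22 and -0.19, compared with -0.17 and -0.14 for the 8 cholesterol genes.

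Marker genes of cell state moved in some of the same libraries. The summed normalized counts of 8 melanocyte markers were 2965 to 3103.6 in sgScr, 2611.4 to 2765.1 with sgPHF8-1 and 2823.2 to 2886 with sgPHF8-3. SOX10 made up most of this sum, with means of 2770.6, 2440.2 and 2559.1, and was called lower with both guides. MITF, with means of 252.9, 229.2 and 278.7, was called with neither. The sums of 5 markers of dedifferentiated melanoma were 43094 to 43792.8, 38057.9 to 39267.9 and 42075.7 to 43083.2. NGFR carried most of that lower sum, with 11693.0 ± 260.6 in sgScr, 7198.7 ± 173.2 with sgPHF8-1 and 9569.9 ± 463.8 with sgPHF8-3 (SD, n = 3), whereas SOX9 was called higher with sgPHF8-1 and EGFR with sgPHF8-3, AXL was called with neither, and WNT5A was called lower with both. Those of 7 markers of immune, endothelial and epithelial cells were 47.4 to 64.6, 26.7 to 42.2 and 31.7 to 47.1, with CD3E at 0 in all libraries. KRT14 made up most of that last sum, with means of 40.0 ± 3.6 in sgScr, 18.8 ± 7.3 with sgPHF8-1 and 21.4 ± 6.4 with sgPHF8-3 (SD, n = 3). The part of these shifts in the cholesterol gene results was not tested.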

How the data were processed

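RNA-seq libraries were made from ribosomal RNA-depleted total RNA of SKMEL-147 cells with a strand-marking kit (ScriptSeq). Per the methods, the authors aligned reads to hg19 with STAR and made read counts. The submitters' processing notes also name HTSeq and Picard, without their roles. The counter, annotation version and strand setting are not given in the sources used here. The authors deposited raw counts per gene and normalized counts, the latter being a signal made by dividing each library's counts by 1 size factor (DESeq2). All 57736 rows of both tables agree within 0.01 normalized counts, and 100% of the normalized values, multiplied by the size factor, lie within 0.01 of a whole read. No column of the tables was left unused, and mitochondrial rows were at 0.

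Raw counts were tested with edgeR 4.0.16 (R 4.3.3; TMM, filterByExpr, 14614 genes, robust quasi-likelihood, all 9 libraries, 1 coefficient per group, two-sided, Benjamini-Hochberg adjustment over all tested genes, calls under 0.05). Standard errors and 95% intervals came from the same fit, which was tested on simulated counts. Levels are normalized counts, per kb over merged GENCODE exons on GRCh37 where genes are compared. Alternatives used DESeq2 1.42.0, limma 3.58.1 (log2 of normalized count + 1), other scaling, no filter, only the groups compared, the guides as 1 group, a replicate block, and each library left out. Replicates are described as biological. The replicate letters were not taken as pairs. The counting error at 17366120 to 19838142 counts per library is small for all members but SC5D.

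The members and lists were chosen with earlier results of these data known. Named besides the members are PHF8, SCAP, INSIG2, SREBF1, ABCA1, the up to 4 called genes of each list with the largest changes per guide, and the 5 genes outside the lists most correlated with the members. The cell-state markers, named outside this rule, were chosen after their values were seen. Some genes that the rule names are not reported here, though list counts cover whole lists. The marker PECAM1 was not analysed here. Sequences of guides came from the study's oligo list and promoters from RefSeq.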

Additional observations from a re-analysis of the deposited data

Results flagged for a closer look

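The change against sgScr differed between the guides in 3 genes, by the direct edgeR test of sgPHF8-1 against sgPHF8-3. The log2 difference was -0.18 for HMGCS1 (adjusted p = 0.00143), -0.13 for INSIG1 (adjusted p = 0.0167) and -0.11 for SREBF2 (adjusted p = 0.0332). The HMGCS1 call held in all 13 alternatives, that of INSIG1 in 9 and that of SREBF2 in 5, the latter pair being lost with DESeq2 (0.0601 and 0.0941). All 3 sgPHF8-1 libraries lay below all 3 sgPHF8-3 libraries in each gene, as they did in 13.0% of all tested genes. PHF8 RNA, which is not a measure of PHF8 protein, differed the other way, by 0.48. Groups of 3 libraries are too small for the test of single outlying values.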

How the results depend on the processing

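The number of members called lower against sgScr was 6 with sgPHF8-1 and 7 with sgPHF8-3, and leaving out 1 library at a time gave 5 to 6 and 3 to 7. The lowest value, 3, came without sgScr replicate A, where HMGCS1, SQLE, IDI1 and FDFT1 were no longer called. For sgPHF8-1 against sgPHF8-3 the number was 3, with 1 to 3 when 1 library was left out (1 without sgPHF8-3 replicate A and 1 without sgPHF8-3 replicate C) and 1 with DESeq2. For both guides it was 7 under every alternative. Libraries with the same letter deviated from their group means with correlations of -0.078 to 0.051, and not every library correlated best with its own letter. No pairing by letter was thus visible, but these values cannot show how the replicates were prepared. A replicate block by letter gave 6, 7, 3 and 7. It changed no call of a member, nor of PHF8 or a named pathway gene against sgScr. Other named genes and comparisons were not followed in the alternatives. Leaving out sgPHF8-1 replicate B and sgPHF8-3 replicate C together, an alternative chosen after seeing the data, gave 6, 7, 2 and 7. The causes were not tested.

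Over all tested genes, DESeq2 called 1816 for sgPHF8-3 against sgScr where edgeR called 2921, and 988 for sgPHF8-1 against sgPHF8-3 where edgeR called 1632. The sign turned in values that were not called. SC5D ranged from -0.041 to 0.049 for both guides and from -0.038 to 0.142 with sgPHF8-1 when 1 library was left out, and was -0.046 and -0.038 without the pair of libraries named above. IDI1 between the guides ranged from -0.027 to 0.031 and was -0.043 without that pair. NPC2 with sgPHF8-3 ranged from -0.02 to 0.056 and SCAP from -0.036 to 0.001. Counting error weighs most on the named pathway genes with the lowest counts, MYLIP, TM7SF2, PMVK, INSIG2, ACSS2 and SC5D.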
